A study of Mus musculus with 9 samples.

Results

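The genes described here encode nuclear subunits of the last steps of mitochondrial respiration in normal mammary fibroblasts (NMF): respiratory complex III, complex IV and ATP synthase. They were taken by name, as every gene starting with Uqcr, with Cox followed by 4, 5, 6, 7 or 8, or with Atp5, plus Cyc1 and Cycs. This gave 41 of 11931 genes, 9 of complex III, 15 of complex IV and 17 named for ATP synthase, and all 41 passed the filter on low values. Cycs, which encodes cytochrome c, the testis form Cyct and the isoform genes Cox8b and Cox8c were not analysed here, nor were the subunits that the mitochondrial genome itself encodes. The fibroblasts came from mammary fat pads of BALB/c females, 12 weeks of age, and had 1 week on collagen to recover. They were then grown with 4T1-GFP cells, a BALB/c mouse mammary carcinoma line that carries green fluorescent protein (GFP), over 5 or 3 days, or were kept alone for 5 days. Cells of all 3 groups were sorted as GFP- PDPN+, that is, without GFP and with the surface protein podoplanin, and 3′ end mRNA libraries were sequenced. Each group had 3 libraries: co-culture for 5 days, co-culture for 3 days and monoculture for 5 days. All mice were of the same strain, and the labels name no genetic change in the fibroblasts.

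Complex III passes electrons from ubiquinol to cytochrome c, and complex IV, cytochrome c oxidase, passes them on to oxygen. Both pump protons across the inner mitochondrial membrane, and ATP synthase lets the protons flow back and uses that flow to make ATP. Most subunits are encoded in the nucleus, and several subunits of complex IV and the membrane ring of ATP synthase have more than 1 gene, some of them used mainly in muscle, lung or testis.

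Reads assigned to genes, recovered from the normalised values, numbered 1459381 to 1987168 in the 5-day co-cultures, 1048471 to 2579766 in the 3-day co-cultures and 2623911 to 3567326 in the monocultures. The summed level of 15 epithelial and carcinoma markers was 1105 to 1544 normalised counts in the 5-day co-cultures, 1120 to 1290 in the 3-day co-cultures and 54.9 to 82.1 in the monocultures. Of 13 such markers tested with limma, 12 were higher at 5 days and 12 at 3 days, and Cldn3, Elf3 and Grhl2, 3 of the 15, were at 0 in every monoculture library. All 10 fibroblast markers were measured, and their summed level was 38936 to 53343 in the 5-day co-cultures, 43599 to 54892 in the 3-day co-cultures and 43955 to 61303 in the monocultures. Among them Pdgfra, Pdgfrb, Col3a1, Thy1 and Dcn were lower and Vim was higher after 5 days of co-culture. The sort gene Pdpn did not pass, at 275.3 ± 55.0 in the 5-day co-cultures, 294.6 ± 83.2 in the 3-day co-cultures and 214.9 ± 20.0 in the monocultures (SD, n = 3). The 2 basal epithelial markers, Krt14 and Sfn, were higher on both days, with a summed level of 39.6 to 49.9 at 5 days, 44.6 to 66.4 at 3 days and 0.6 to 9.6 in monoculture. Of 3 macrophage and leukocyte markers, summing to 52.4 to 126.7 at 5 days, 107.9 to 287.5 at 3 days and 70.1 to 230.3 in monoculture, Csf1r was lower at 5 days than in monoculture (limma adjusted p = 0.012) and than at 3 days (limma adjusted p = 0.022). Its level was 6.3, 9.3 and 3.7 at 5 days, 14.9, 17.4 and 25.0 at 3 days and 17.9, 17.3 and 16.1 in monoculture, and its part in the members' results was not tested. Adipocyte markers were not analysed here. In bulk libraries such as these, a lower level from fewer cells of a type and one from less RNA per cell cannot be told apart.

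After 5 days of co-culture the summed level of the 41 genes was 34968, 39523 and 35941 normalised counts in the 3 libraries. In the 3-day co-cultures it was 28561, 31028 and 30856, and in monoculture 26560, 29054 and 27806. Every 5-day library stood above every other library, and the 3-day and monoculture ranges overlapped. Within complex IV the 3 group ranges did not overlap. There the sum was 12203 to 14669 at 5 days, 10097 to 11844 at 3 days and 9077 to 9903 in monoculture. In percent of a library's normalised total it was 0.683% to 0.801%, 0.58% to 0.671% and 0.541% to 0.578%. On that scale 3 days and monoculture were barely apart. For ATP synthase it was 14512 to 16787 at 5 days, against 11797 to 12862 at 3 days and 11654 to 12744 in monoculture. For complex III the 5-day range, 6835 to 8067, overlapped that at 3 days, 6643 to 7323, and lay above the monoculture range of 5829 to 6406. As a share of a library's normalised total this last gap was narrow, with 0.375% to 0.439% at 5 days and 0.348% to 0.374% in monoculture. The share at 3 days was 0.376% to 0.408%.

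**Figure D1:**
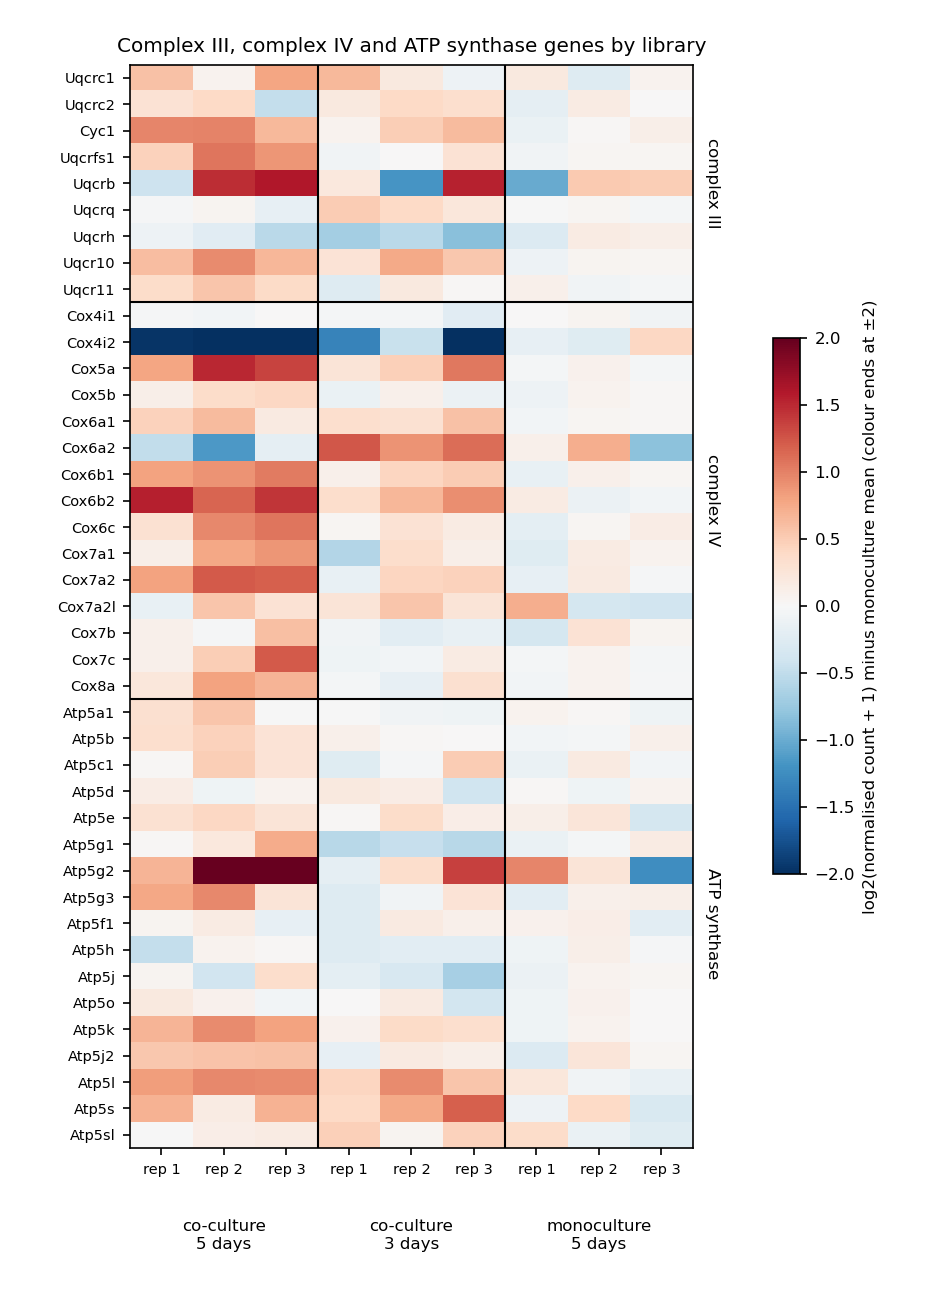
Level of each of the 41 genes in each library, as log2(normalised count + 1) minus the gene's mean over the 3 monoculture libraries; columns are libraries by group, rows are genes by complex, and the colour scale ends at ±2. Most rows are red in the 5-day co-cultures, while Cox4i2 is blue there and Cox6a2 is most red in the 3-day co-cultures.

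Tested with limma over all genes, 14 of the 41 rose in 5-day co-culture against monoculture and 1 fell at an adjusted p under 0.05, beside 12.6% of the 10639 tested genes higher and 11.4% lower. The 14 were Cyc1, Uqcrfs1 and Uqcr10 of complex III, Cox5a, Cox6b1, Cox6b2, Cox6c, Cox7a2 and Cox8a of complex IV, and Atp5g2, Atp5g3, Atp5j2, Atp5k and Atp5l of ATP synthase. Cox4i2, a complex IV isoform, was the one that fell. The members' median log2 fold change was 0.43, against -0.01 over all tested genes, and 35 of 41 were above 0, against 49.4% of all tested genes. Well-measured genes as a whole leaned upward. Of the 32 members averaging 100 normalised counts or more, 11 were higher, with a median of 0.34, against 19.9% higher and 12.9% lower, with a median of 0.1, of the 3029 tested genes at that level. The changes were small: those called higher lay between 0.56 and 1.63 on the log2 scale, and 5 of the 15 called genes changed at least 2-fold. In 14 of the 15 the 2 groups did not overlap, and Atp5g2 was the exception. With 3 libraries a group a call makes such a gap likely, so it is not separate support. Without 5-day replicate 2 the number higher went to 9, and with the removal of any other library of the compared groups it was 10 to 13. Epithelial markers were higher in the same libraries, and their part in these changes was not tested. The labels do not say whether replicates were separate cultures or animals, so the p-values measure only the spread between these samples.

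**Figure D2:**
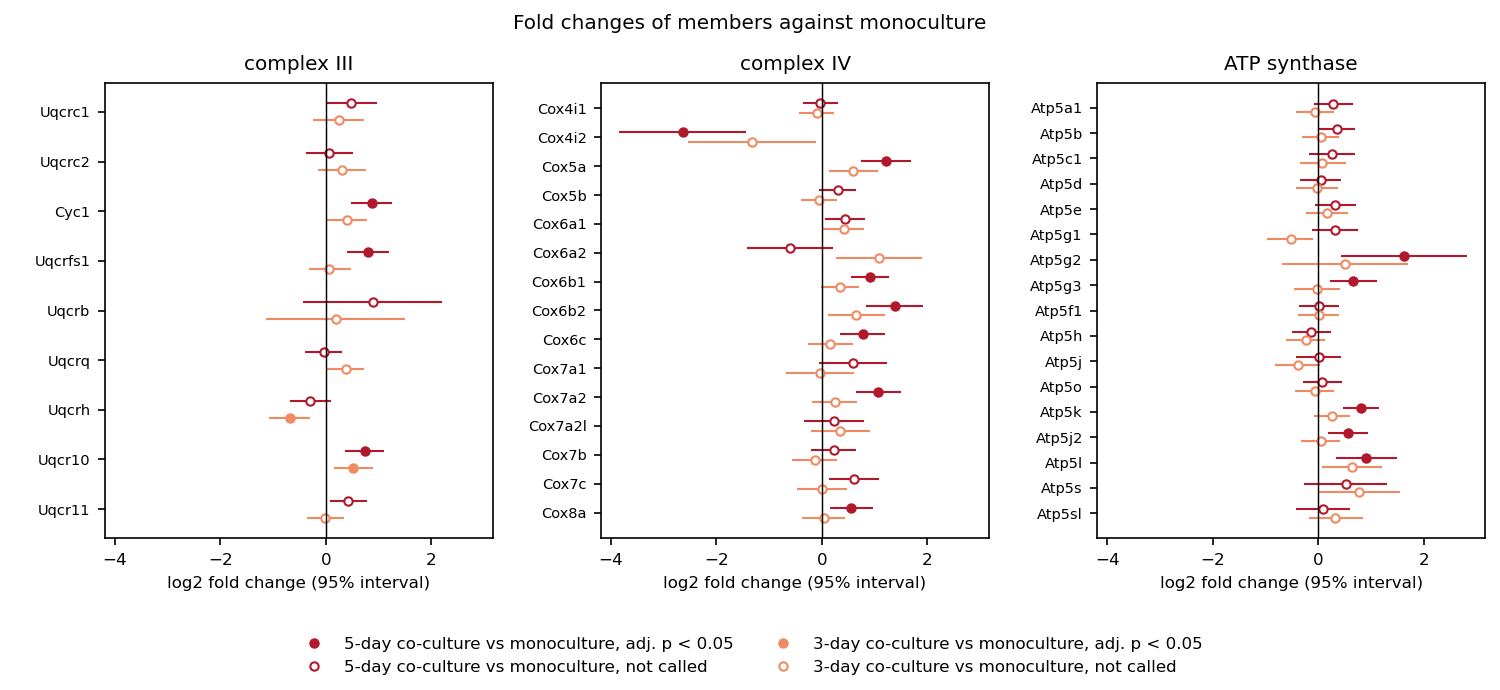
Log2 fold change of each gene against monoculture (horizontal axis, log2 scale) with its 95% interval from the limma fit, in 5-day co-culture (red) and 3-day co-culture (orange); filled points passed an adjusted p of 0.05. At 5 days 15 points are filled, and at 3 days 2 are, Uqcr10 and Uqcrh.

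The members' promoters were searched for the letters bound by factors known for nuclear genes of respiration. Sequences from 250 bases before to 50 bases after the annotated start were taken from a RefSeq promoter table (GRCm38.p6) for the 32 of 41 genes that could be matched to it, and those of the other 9 were not analysed here. The motif of the nuclear respiratory factor NRF1, searched as GCGCA, any base, then GCGC, was in 7 of the 32 (21.9%), against 11.1% of 8122 tested genes and 4.78% of 27025 promoters in all; this and the other motifs were searched on both strands. The ETS motif CCGGAAG, read by GABP among other factors, was in 9 (28.1%), against 19.4% of tested genes and 9.12% of all. GGGCGG, the SP1 box, was in 11 (34.4%), against 67.1% of tested genes and 35.9% of all, and the members' median GC content of 55.8% was below the 61.3% of tested genes. ATGGCGG, the YY1 motif, was in 2 (6.25%), against 8.91% of tested genes and 4.19% of all. TNAAGGTCA, read by estrogen-related receptors, was in 1 (3.12%), that of Atp5g3, against 0.726% of tested genes and 1.26% of all. An NRF1 or ETS motif was in 6 of 12 promoters of genes that rose at 5 days and in 7 of the other 20, so the letters also stood before members that did not pass the test.

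The following promoters show where the 2 motifs lie, on the gene's own strand, with NRF1 and ETS matches (in either orientation) in capitals. Atp5k (chr5:108434350-108434649, minus strand) holds both, Atp5g3 (chr2:73911277-73911576, minus strand) holds an NRF1 match, and Cox6b1 (chr7:30626065-30626364, minus strand) and Cox8a (chr19:7217567-7217866, minus strand) hold ETS matches. All of these genes rose at 5 days, as did Cox5a, Cox6b2, Cox7a2, Uqcr10, Uqcrfs1 and Atp5j2, whose promoters hold neither motif. Uqcrh (chr4:116075021-116075320, minus strand), with an ETS match, fell at 3 days.
Atp5k: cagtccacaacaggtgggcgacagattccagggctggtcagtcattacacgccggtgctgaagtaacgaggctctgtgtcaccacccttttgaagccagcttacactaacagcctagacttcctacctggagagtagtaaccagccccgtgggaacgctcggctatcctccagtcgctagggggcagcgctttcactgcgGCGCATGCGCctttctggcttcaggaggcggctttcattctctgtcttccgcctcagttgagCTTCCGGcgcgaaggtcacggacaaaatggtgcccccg
Atp5g3: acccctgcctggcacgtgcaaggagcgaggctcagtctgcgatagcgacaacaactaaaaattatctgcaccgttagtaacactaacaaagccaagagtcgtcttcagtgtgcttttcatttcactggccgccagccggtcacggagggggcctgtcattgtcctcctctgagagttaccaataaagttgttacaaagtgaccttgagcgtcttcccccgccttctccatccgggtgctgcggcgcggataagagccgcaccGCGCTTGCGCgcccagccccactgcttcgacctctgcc
Cox6b1: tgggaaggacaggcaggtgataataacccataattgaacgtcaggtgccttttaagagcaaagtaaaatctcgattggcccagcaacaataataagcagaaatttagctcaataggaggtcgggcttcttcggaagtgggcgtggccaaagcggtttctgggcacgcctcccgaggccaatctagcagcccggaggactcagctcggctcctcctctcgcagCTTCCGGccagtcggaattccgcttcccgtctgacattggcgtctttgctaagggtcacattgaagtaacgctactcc
Cox8a: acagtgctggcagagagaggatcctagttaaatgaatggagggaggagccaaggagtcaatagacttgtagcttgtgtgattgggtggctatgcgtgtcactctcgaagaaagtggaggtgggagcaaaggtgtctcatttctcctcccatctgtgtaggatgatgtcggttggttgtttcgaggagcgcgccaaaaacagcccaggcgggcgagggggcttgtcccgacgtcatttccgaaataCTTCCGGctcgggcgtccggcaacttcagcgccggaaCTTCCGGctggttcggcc
Uqcrh: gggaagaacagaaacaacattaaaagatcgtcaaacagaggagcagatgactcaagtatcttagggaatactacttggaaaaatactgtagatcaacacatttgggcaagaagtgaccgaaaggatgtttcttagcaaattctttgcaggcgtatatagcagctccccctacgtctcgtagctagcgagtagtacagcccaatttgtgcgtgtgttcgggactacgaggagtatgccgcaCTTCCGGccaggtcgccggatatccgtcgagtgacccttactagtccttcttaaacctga
A match is a run of letters only, and binding was not measured in these samples. In Cox8a the ETS letters occur at 2 places.

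Within complex III, the electron-carrying subunits rose in 5-day co-culture and the core subunits did not pass the test. Of 9 genes 3 passed, all of them higher (33.3%, against 12.6% of all tested genes), with a median log2 fold change of 0.48. Cyc1 (chromosome 15, 76343523 to 76346260, plus strand, mm10), which encodes cytochrome c1, had normalised counts of 622.6, 624.0 and 493.1 in the 5-day co-cultures, 330.5, 441.3 and 486.9 in the 3-day co-cultures and 285.9, 319.7 and 340.0 in monoculture. All 5-day libraries were above all others, and its log2 fold change at 5 days against monoculture was 0.87 ± 0.18 (SE, limma adjusted p = 0.0026). Uqcrfs1 (chromosome 13, 30540308 to 30545362, minus strand), the gene of the Rieske iron-sulfur protein, had 500.5, 767.5 and 671.7 at 5 days, 347.1, 364.8 and 446.6 at 3 days and 346.6, 374.0 and 374.1 in monoculture. Again the 5-day libraries stood apart, at 0.80 ± 0.19 (SE, limma adjusted p = 0.0048). The pair of core subunit genes, which hold the complex together on the matrix side, were less clear. Uqcrc1 had means of 303.6 ± 73.0 at 5 days, 258.3 ± 69.3 at 3 days and 214.5 ± 33.7 in monoculture (SD, n = 3), a difference of 0.48 that missed the threshold (limma adjusted p = 0.14). Uqcrc2 averaged 397.9 ± 117 at 5 days, 456.0 ± 33.3 at 3 days and 368.9 ± 44.9 in monoculture, and its groups overlapped at 5 days.

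The small subunits of complex III went different ways. Uqcr10 (chromosome 11, 4701973 to 4704342, minus strand) had 1400.7, 1752.9 and 1449.4 at 5 days, 1101.0, 1539.8 and 1323.1 at 3 days and 851.6, 954.1 and 940.3 in monoculture. Every co-culture library of either day was above every monoculture library, and it was the only member called higher on both days, at 0.74 ± 0.18 (SE, limma adjusted p = 0.0058) and 0.52 ± 0.18 (limma adjusted p = 0.048). Uqcrh (chromosome 4, 116066965 to 116075071, minus strand), the gene of the acidic hinge protein that faces cytochrome c, ran the other way. It had 1309.1, 1204.3 and 966.3 at 5 days, 878.5, 967.6 and 786.1 at 3 days and 1164.8, 1563.7 and 1514.3 in monoculture. The 3-day libraries were below all monocultures, a log2 fold change of -0.68 ± 0.18 (SE, limma adjusted p = 0.014), while the 5-day libraries overlapped them. Uqcrq, with the largest p of the complex at 5 days, had 1861.7, 1962.4 and 1687.9 at 5 days, 2666.9, 2494.2 and 2198.2 at 3 days and 1880.9, 1930.9 and 1844.6 in monoculture. It was highest in the 3-day libraries, which did not overlap the monocultures, and its difference of 0.38 missed the threshold (limma adjusted p = 0.12). Uqcr11 averaged 917.6 ± 70.9 at 5 days, 680.0 ± 105 at 3 days and 678.7 ± 40.6 in monoculture and missed the threshold at 0.43 (limma adjusted p = 0.073). Uqcrb was measured with 7.0 to 53.7 normalised counts over the 9 libraries and its groups overlapped in both comparisons with monoculture. The call of Uqcr10 at 3 days was lost under 11 of 17 alternatives, with limma adjusted p of 0.051 to 0.19 there, among them without replicate 2 (0.19) or replicate 3 (0.096) of the 3-day co-culture or any monoculture library (0.089 to 0.14). That of Uqcrh was lost without 3-day replicate 3 (0.053) or monoculture replicate 2 (0.065) or 3 (0.061).

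**Figure D3:**
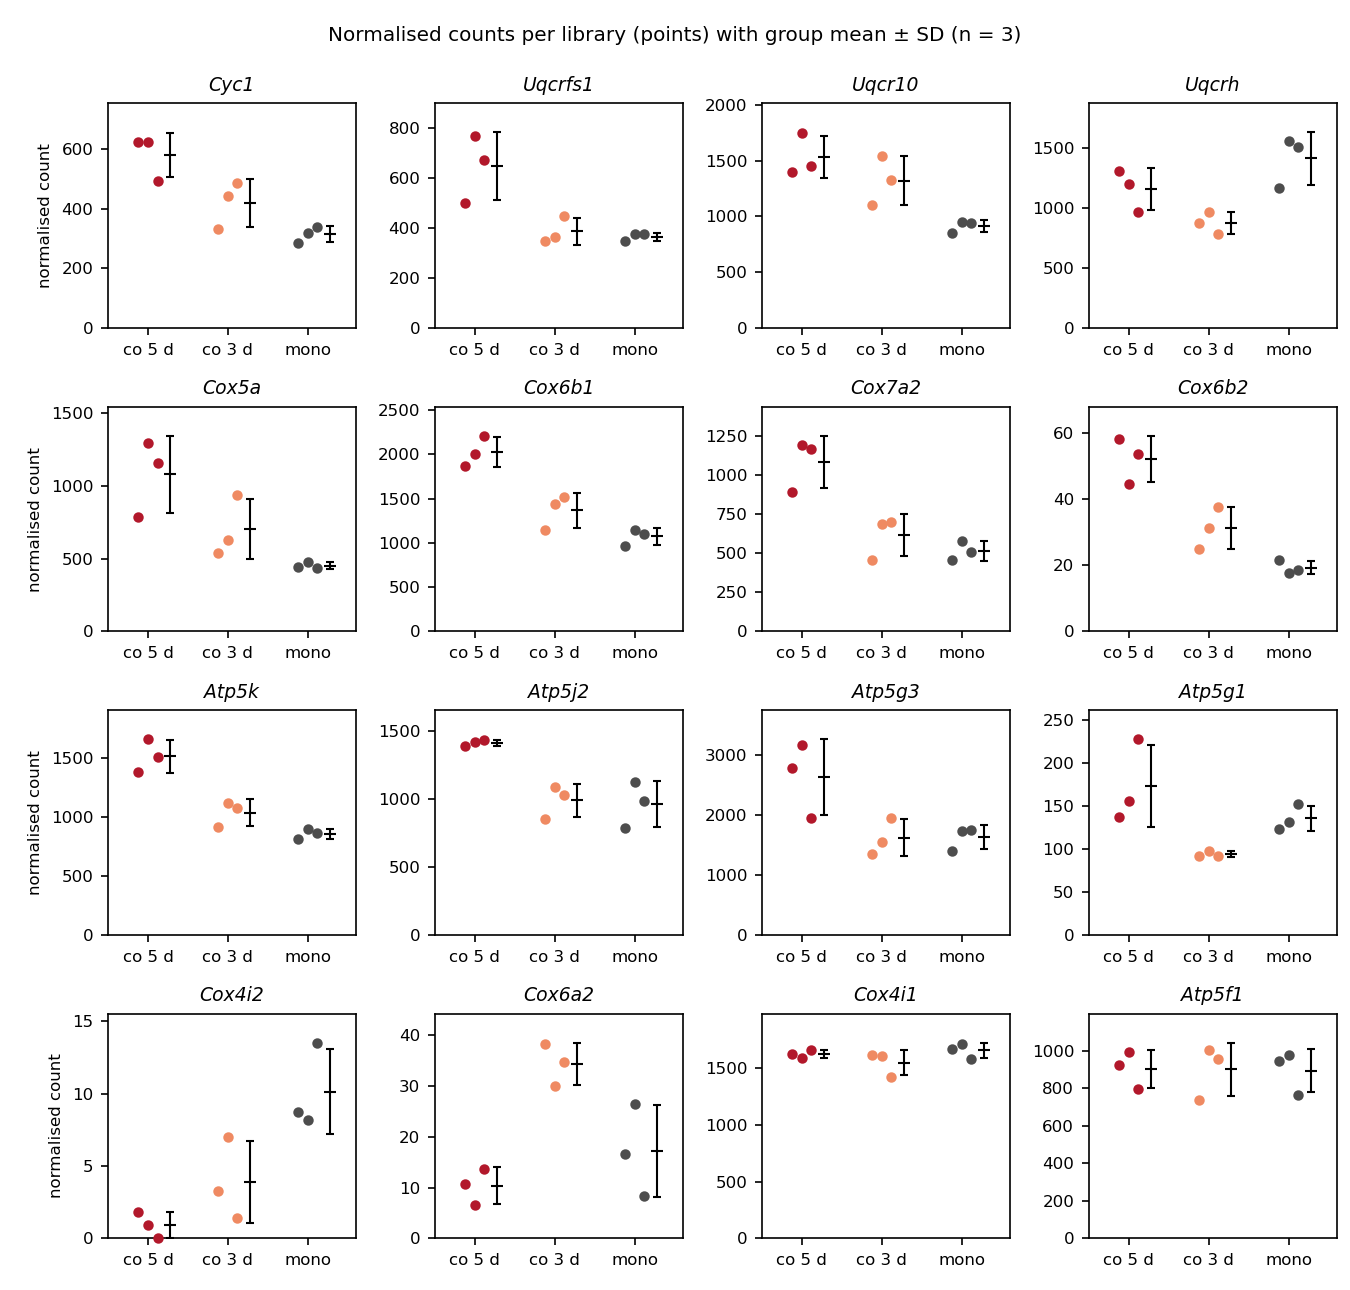
Normalised counts of 16 genes in each library (points) with the group mean ± SD (n = 3), for co-culture at 5 days, co-culture at 3 days and monoculture from left to right; each panel has its own vertical axis from 0. Cyc1, Cox5a, Cox6b1, Cox7a2 and Atp5k are highest in the 5-day co-cultures, Cox4i2 is lowest there, Cox6a2 is highest at 3 days, and in Cox4i1 and Atp5f1 the groups overlap.

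Complex IV had the most genes called at 5 days, 6 higher (40.0%) and 1 lower (6.67%) of 15, with a median log2 fold change of 0.56. Of all tested genes 12.6% were higher and 11.4% lower, and of those averaging 100 or more 19.9% and 12.9%. Cox5a (chromosome 9, 57521274 to 57532426, plus strand), a subunit without a second isoform, had 785.3, 1295.5 and 1161.0 normalised counts at 5 days, 541.4, 632.1 and 939.1 at 3 days and 441.9, 480.2 and 439.0 in monoculture. Both co-culture groups were above the monocultures without overlap, and at 5 days it was 1.22 ± 0.22 higher on the log2 scale (SE, limma adjusted p = 0.00073). At 3 days the difference of 0.59 missed the threshold (limma adjusted p = 0.07), and it passed with DESeq2 (0.048) and without 3-day replicate 1 (0.032). Cox6c, with no other form among the members, had 610.1, 953.7 and 1028.7 at 5 days, 503.2, 602.8 and 552.3 at 3 days and 431.4, 507.6 and 542.5 in monoculture. Its 5-day libraries were above the rest, at 0.78 ± 0.20 (SE, limma adjusted p = 0.0098), and 34.9% of the 50-base windows in the last 300 bases of its transcripts are shared with Cox6c2, so part of its reads could belong there. Cox8a, the ubiquitous form of subunit 8, averaged 835.5 ± 167 at 5 days, 576.2 ± 104 at 3 days and 556.9 ± 26.6 in monoculture (0.56, limma adjusted p = 0.039). That call was lost without 5-day replicate 2 (0.16) or 3 (0.11), without any 1 monoculture library (0.067 to 0.1) and under quantile normalization (0.11).

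Cox5b, Cox7b and Cox7c, also with no other form among the members, did not pass. Cox7c had 689.1, 901.6 and 1495.6 at 5 days, against 606.1, 616.1 and 716.5 at 3 days and 624.5, 674.4 and 627.3 in monoculture. All its 5-day libraries were above the monocultures, but they were spread widely, and the difference of 0.60 had a limma adjusted p of 0.063. It passed with edgeR (0.042), with DESeq2 (0.03) and without 5-day replicate 1 (0.014), and 65.2% of its 3′ windows are shared with Gm10012, Gm12338 and Gm20091.

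At 5 days against monoculture the isoform genes of subunits 4 and 7a were not called alike. Neither gene of subunit 6a was called, and both of subunit 6b were called higher. Cox4i1, the ubiquitous form of the subunit that regulates the oxidase by ATP, stood at 1620.9, 1587.1 and 1657.9 at 5 days, 1610.8, 1607.3 and 1416.3 at 3 days and 1666.7, 1708.8 and 1579.2 in monoculture. All groups overlapped, and its log2 difference at 5 days was -0.03 with a 95% interval of -0.36 to 0.31 (limma adjusted p = 0.93). Cox4i2 (chromosome 2, 152754173 to 152765037, plus strand), the form known from lung and from hypoxic cells, had 1.8, 0.9 and 0.0 at 5 days, 3.3, 7.0 and 1.4 at 3 days and 8.7, 8.2 and 13.5 in monoculture. The monocultures were above every co-culture library, and the 5-day value was lower by limma (log2 fold change -2.64 ± 0.57, adjusted p = 0.003). It rested on 3 reads at 5 days, 13 at 3 days and 52 in monoculture, a ratio of 0.101 at 5 days against monoculture with a counting interval of 0.0203 to 0.313, which covers counting error only. At 3 days its difference of -1.32 missed the threshold (limma adjusted p = 0.12).

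Cox6a1 and Cox6a2 are the ubiquitous and the striated-muscle form of subunit 6a. Cox6a1 had 3500.5, 3964.9 and 2898.9 at 5 days, 3216.6, 3160.4 and 3835.8 at 3 days and 2454.6, 2607.7 and 2588.9 in monoculture. Every co-culture library was above every monoculture library, yet 0.43 at 5 days (limma adjusted p = 0.097) and 0.41 at 3 days (limma adjusted p = 0.12) missed the threshold, which the 5-day difference passed only without 5-day replicate 3 (0.047). Cox6a2 had 10.8, 6.5 and 13.7 at 5 days, 38.2, 29.9 and 34.8 at 3 days and 16.7, 26.4 and 8.4 in monoculture. The 3-day libraries were above all others. The 5-day level was lower than the 3-day level by a log2 fold change of -1.69 ± 0.38 (SE, limma adjusted p = 0.015), whereas 1.08 at 3 days against monoculture did not pass (limma adjusted p = 0.058, but 0.044 with a pseudocount of 5 and 0.023 without monoculture replicate 2). The summed level of 2 muscle markers, Acta1 and Tnnt3, was 74.6 to 89.4 at 5 days, 79.4 to 194.3 at 3 days and 15.4 to 62.5 in monoculture, and its part in the level of Cox6a2 was not tested.

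Both genes of subunit 6b rose at 5 days. Cox6b1 (chromosome 7, 30616861 to 30626151, minus strand), the ubiquitous form, had 1866.1, 2000.6 and 2207.2 at 5 days, 1144.2, 1438.9 and 1517.9 at 3 days and 969.2, 1149.8 and 1104.8 in monoculture. The 5-day libraries stood clear of both other groups, at 0.91 ± 0.17 against monoculture (SE, limma adjusted p = 0.001). Cox6b2, known as the testis form, had 58.4, 44.7 and 53.7 at 5 days, 24.9, 31.3 and 37.6 at 3 days and 21.7, 17.8 and 18.6 in monoculture. Its 3 groups did not overlap at all, and the 5-day log2 difference was 1.38 ± 0.25 (SE, limma adjusted p = 0.00083). Of the 7a family, Cox7a2, the ubiquitous form, had 892.2, 1192.2 and 1168.5 at 5 days, 460.0, 687.8 and 702.6 at 3 days and 456.8, 579.7 and 505.8 in monoculture. It was higher at 5 days than in either other group, at 1.07 ± 0.20 against monoculture (SE, limma adjusted p = 0.00088). The heart and muscle form Cox7a1 had 30.5, 48.4 and 52.4 at 5 days, 18.3, 36.2 and 30.6 at 3 days and 23.5, 31.7 and 29.6 in monoculture, with overlap and no call (0.59, limma adjusted p = 0.18). Cox7a2l, also of that family, had 224.6, 366.0 and 302.1 at 5 days, 297.2, 363.4 and 296.3 at 3 days and 413.4, 195.2 and 189.6 in monoculture. The monocultures differed more among themselves than the groups did.

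In ATP synthase the calls differed by part. The genes of the membrane-embedded small subunits e, f and g were called higher at 5 days in 3 of 3 cases. Those of the c ring, the rotor that protons turn, were called in 2 of 3, beside 12.6% of all tested genes higher. Neither the 5 genes of the catalytic F1 head nor the 4 of the peripheral stalk that holds it still gave a call by limma, edgeR or DESeq2, and 1 of these 9, Atp5b, had an unadjusted limma p under 0.05. Over the 17 genes of ATP synthase 5 passed, all of them higher, with a median log2 fold change of 0.32. Of these calls only that of Atp5k was kept under every alternative tried. All 5 F1 genes and 3 of the 4 stalk genes were above 0, with medians of 0.29 and 0.01. A test of the difference between the parts was not made.

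Atp5k (chromosome 5, 108433244 to 108434448, minus strand), for subunit e, had 1375.6, 1653.2 and 1504.4 normalised counts at 5 days, 910.0, 1119.4 and 1076.8 at 3 days and 810.8, 895.5 and 865.1 in monoculture. The 3 groups did not overlap, and the 5-day log2 difference was 0.81 ± 0.16 (SE, limma adjusted p = 0.0017). Atp5j2, for subunit f, had 1391.7, 1421.3 and 1436.9 at 5 days, 856.9, 1089.4 and 1033.7 at 3 days and 790.3, 1127.7 and 984.6 in monoculture, so only the 5-day libraries stood apart (0.56 ± 0.18, limma adjusted p = 0.028). Atp5l, for subunit g, had 28.8, 31.7 and 31.2 at 5 days, 21.6, 31.3 and 23.7 at 3 days and 18.6, 14.9 and 14.1 in monoculture. Every co-culture library was above the monocultures, and the difference was 0.91 ± 0.27 at 5 days (SE, limma adjusted p = 0.021) and, short of a call, 0.65 at 3 days (limma adjusted p = 0.11). The 3′ end of Atp5l is shared in 70.1% of its windows with 11 other annotated genes, among them its pseudogenes, so its reads could be split.

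The c ring is built from 1 protein that 3 genes encode with different leader peptides. Atp5g3 (chromosome 2, 73908447 to 73911326, minus strand) had 2788.0, 3177.9 and 1950.1 at 5 days, 1353.4, 1551.7 and 1961.7 at 3 days and 1403.7, 1739.1 and 1757.8 in monoculture. The 5-day libraries were above the monocultures, 0.67 ± 0.21 (SE, limma adjusted p = 0.028), and overlapped the 3-day libraries. Atp5g2 had 9.9, 27.0 and 30.0 at 5 days, 5.0, 7.7 and 16.7 at 3 days and 12.4, 7.2 and 1.9 in monoculture. It was called higher at 5 days (1.63 ± 0.57, limma adjusted p = 0.046) although 1 of its 5-day libraries lay within the monoculture range, and 55.5% of its 3′ windows are shared with 3 other annotated genes. Atp5g1 had 136.6, 155.5 and 227.2 at 5 days, 91.3, 97.5 and 91.8 at 3 days and 123.2, 131.2 and 151.7 in monoculture. Its 3-day libraries were below all others. Against monoculture it missed the threshold at 5 days (0.32, limma adjusted p = 0.29) and at 3 days (-0.52, limma adjusted p = 0.086). Of its 3′ windows 36.0% are shared with 11 other annotated genes.

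Among the F1 genes, Atp5b, for the catalytic β subunit, had 2794.3, 3056.8 and 2675.4 at 5 days, 2391.3, 2246.4 and 2240.0 at 3 days and 2129.0, 2163.1 and 2375.5 in monoculture. The 5-day libraries were above the rest by a small step, 0.35 with a 95% interval of 0.01 to 0.70 (limma adjusted p = 0.13). Atp5a1, for the α subunit, averaged 1193 ± 226 at 5 days, 927.3 ± 29.8 at 3 days and 962.8 ± 54.6 in monoculture (0.29, limma adjusted p = 0.24). Atp5c1, Atp5d and Atp5e, for the central γ, δ and ε subunits, did not pass either. In the stalk, Atp5f1, for subunit b, averaged 903.1 ± 102 at 5 days, 899.3 ± 141 at 3 days and 893.4 ± 113 in monoculture. Atp5j, for coupling factor 6 and with the largest p of the complex at 5 days, had 363.9, 267.3 and 445.7 at 5 days, 305.5, 280.5 and 219.8 at 3 days and 322.4, 366.3 and 359.3 in monoculture, and its 5-day libraries lay on both sides of the monocultures. Atp5h and Atp5o, for subunit d and the oligomycin sensitivity protein, also overlapped between 5-day co-culture and monoculture. The GENCODE entry matched to Atp5o (chromosome 16, 91684398 to 91926982, minus strand) stops short of its RefSeq promoter at 91931581 to 91931880. The last bases of that entry share 94.8% of their windows with Donson, so they may not be the 3′ end of Atp5o itself. Atp5s and Atp5sl carry ATP synthase names but are not subunits of it (their current names are Dmac2l and Dmac2), and neither passed at 5 days.

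Leaving out 5-day replicate 2 took the ATP synthase calls at 5 days to 1, Atp5k, and leaving out any other library of the compared groups took them to 2 or 3. Atp5g3 was lost without 5-day replicate 1 (limma adjusted p = 0.09) or 2 (0.13) or monoculture replicate 1 (0.11). Atp5j2 was lost without any 5-day library (0.061 to 0.072) or monoculture replicate 1 (0.14) or 3 (0.064), Atp5l without 5-day replicate 2 (0.065) or 3 (0.051) or monoculture replicate 2 (0.067) or 3 (0.08), and Atp5g2 with a pseudocount of 0.5 (0.051) and without 5-day replicate 2 (0.16) or 3 (0.17) or monoculture replicate 2 (0.065) or 3 (0.22). Over all 41 genes, 24 shared no 50-base window in their last 300 bases with another annotated gene, and 8 of these rose and 1 fell at 5 days, against 6 and 0 of the 17 that did share such windows. Atp5o was counted among the 17 through the entry described above.

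After 3 days of co-culture 1 of the 41 genes, Uqcr10, was higher than in monoculture and 1, Uqcrh, lower, beside 10.6% of all tested genes higher and 9.37% lower. The members' median log2 fold change was 0.08, with 27 of 41 above 0, against 50.1% of all tested genes. Among well-measured genes 13.3% were higher and 12.5% lower. Of complex III 2 of 9 were called, Uqcr10 and Uqcrh. In complex IV 0 of 15 passed by limma and by edgeR and 1, Cox5a, by DESeq2, with 5 at an unadjusted p under 0.05. In ATP synthase 0 of 17 passed by any of these tools, with 2 at an unadjusted p under 0.05, Atp5g1 and Atp5l. This comparison changes co-culture and days of culture together, since the monocultures were sampled at 5 days, and the 2 cannot be told apart. It uses the same monoculture libraries as the 5-day comparison. The number higher was 4 without 3-day replicate 1 and 0 without 3-day replicate 2 or 3 or monoculture replicate 3. The epithelial markers summed to 1120 to 1290 at 3 days, 1105 to 1544 at 5 days and 54.9 to 82.1 in monoculture. Their part in the members' results on either day was not tested.

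**Figure D4:**
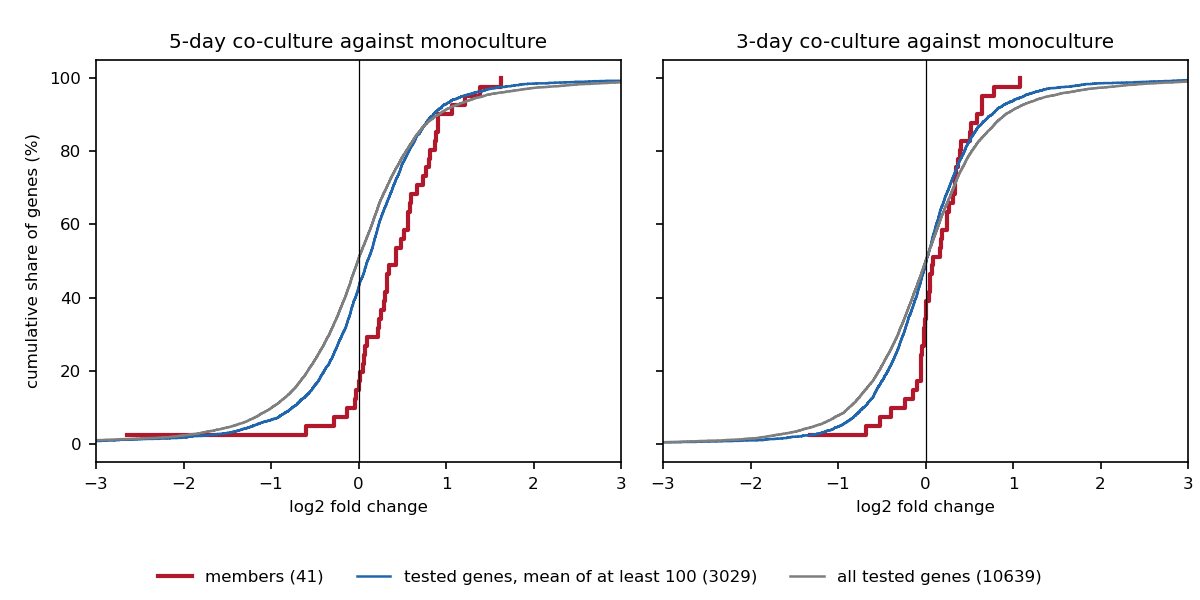
Cumulative share of genes (vertical axis, %) at or below each log2 fold change (horizontal axis, cut at ±3) for the 41 members, the 3029 tested genes averaging 100 or more and all 10639 tested genes, at 5 days (left) and at 3 days (right) of co-culture against monoculture. At 5 days the members' curve lies to the right of the others over most of its range, with a median of 0.43 against 0.1 and -0.01, and at 3 days the curves lie close together, with medians of 0.08, 0.01 and 0.

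Between the co-cultures, 3 genes were higher at 5 days than at 3 days and 1 lower, beside 3.2% of all tested genes higher and 3.71% lower, and 5.84% and 5.28% of the well-measured ones. Atp5g1 rose by 0.85 ± 0.21 on the log2 scale (SE, limma adjusted p = 0.021), Cox7a2 by 0.83 ± 0.20 (limma adjusted p = 0.019) and Uqcrfs1 by 0.73 ± 0.19 (limma adjusted p = 0.027), and Cox6a2, given above, was the one that fell. In all 4 the 5-day and 3-day libraries did not overlap, which a call makes likely. The members' median was 0.35, with 34 of 41 above 0, against 49.5% of all tested genes. Cox6b1 (0.57, limma adjusted p = 0.055) and Atp5k (0.55, limma adjusted p = 0.055) missed the threshold, although their libraries did not overlap. Both passed with DESeq2, at 0.021 for Cox6b1 and 0.017 for Atp5k, and among genes with a mean of at least 20, at 0.048 each. Atp5g3 (0.69, limma adjusted p = 0.058) passed only with DESeq2 (0.024) or without 5-day replicate 3 (0.027) or 3-day replicate 3 (0.036). Without 3-day replicate 1 all 4 calls were lost, with Cox6a2 at 0.05, Atp5g1 at 0.053, Cox7a2 at 0.073 and Uqcrfs1 at 0.08. Without 5-day replicate 2 Cox6a2 (0.066), Cox7a2 (0.077) and Uqcrfs1 (0.12) were lost, without 5-day replicate 3 Atp5g1 (0.086), Cox7a2 (0.072) and Uqcrfs1 (0.08), and without 3-day replicate 2 Atp5g1 (0.066) and Uqcrfs1 (0.1). Without 5-day replicate 1 or 3-day replicate 3 the number higher was 5. This comparison uses the co-culture libraries of both others.

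Genes that build or serve these complexes were counted beside them, at 5 days against monoculture, where 12.6% of all tested genes were higher and 11.4% lower. Of 22 tested assembly and biogenesis genes of complex IV 3 were higher (13.6%) and 2 lower (9.09%), with a median log2 fold change of 0.17, shares near those of all tested genes. Cox17, the copper chaperone that delivers copper to the oxidase, had 834.7, 1113.0 and 2063.7 at 5 days, 646.0, 835.3 and 973.9 at 3 days and 376.3, 340.8 and 442.2 in monoculture. It was above the monocultures in every co-culture library, at 1.69 ± 0.26 at 5 days (SE, limma adjusted p = 0.0002) and 1.07 ± 0.26 at 3 days (limma adjusted p = 0.0089). Cox18, which inserts a subunit into the membrane, averaged 95.8 ± 12.9 at 5 days, 86.3 ± 25.3 at 3 days and 49.5 ± 3.86 in monoculture (0.93 at 5 days, limma adjusted p = 0.007). Higd1a, a hypoxia-inducible gene, had 36.8, 47.5 and 69.9 at 5 days, 26.6, 18.8 and 15.3 at 3 days and 69.3, 122.1 and 92.6 in monoculture. It was lowest at 3 days, by -2.17 ± 0.29 (SE, limma adjusted p = 7.7e-05), and at 5 days by -0.88 (limma adjusted p = 0.039), a call lost without 5-day replicate 1 (0.16) or 2 (0.1) or monoculture replicate 2 (0.17) or 3 (0.098). The remaining calls on that list at 5 days were Coa5 (0.60, limma adjusted p = 0.034) and Higd2a (-0.55, limma adjusted p = 0.041). Both were lost without replicate 2 or 3 of either group (Coa5 0.064 to 0.15, Higd2a 0.09 to 0.16). At 3 days 2 were higher (9.09%), Cox17 and Cox18, and 2 lower (9.09%), Higd1a and Pet100, beside 10.6% and 9.37% of all tested genes. Cox18 at 3 days (0.76, limma adjusted p = 0.027) was lost without 3-day replicate 3 (0.12) or monoculture replicate 1 (0.076) or 3 (0.079), and Pet100 differed by -0.89 (limma adjusted p = 0.0042). Of 7 assembly genes of complex III 1 passed, the heme lyase gene Hccs, which was lower (-1.04, limma adjusted p = 0.045), and which missed the threshold in 10 of 17 alternatives (0.05 to 0.2), among them without 5-day replicate 1 or 3 or any monoculture library.

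Among genes that move ADP, ATP and phosphate across the mitochondrial membranes 2 of 6 passed at 5 days, both higher (33.3%, against 12.6% of all tested genes). Vdac1, the outer membrane channel, averaged 726.4 ± 78.7 at 5 days, 496.0 ± 30.1 at 3 days and 442.0 ± 5.52 in monoculture (0.71, limma adjusted p = 0.0037). Slc25a3, the phosphate carrier, had 1699.0, 2825.8 and 2189.8 at 5 days, 1101.0, 994.1 and 1665.4 at 3 days and 1185.8, 1340.1 and 1527.7 in monoculture. Its 5-day libraries were above all others, at 0.70 (limma adjusted p = 0.031), and the call was lost without 5-day replicate 2 (0.15) or 3 (0.072) or monoculture replicate 1 (0.1) or 2 (0.068). Of 3 subunit genes that the naming rule leaves out 1 was higher, Usmg5, a small ATP synthase subunit, with 364.7 ± 91.2 at 5 days, 269.5 ± 14.2 at 3 days and 200.2 ± 40.4 in monoculture (0.85, limma adjusted p = 0.0081). Ndufa4, now counted with complex IV, averaged 283.5 ± 17.9 at 5 days, 282.7 ± 36.9 at 3 days and 333.9 ± 32.1 in monoculture. Of 7 genes of complex II, which feeds ubiquinol to complex III, 2 were higher (28.6%) and 1 lower (14.3%), all of them among its 4 subunit genes and none among its 3 assembly factor genes. Its iron-sulfur subunit gene Sdhb (0.65, limma adjusted p = 0.0083) and its membrane anchor gene Sdhc (0.75, limma adjusted p = 0.0094) were higher, while the other anchor gene, Sdhd, was lower at 5 days (-0.89, limma adjusted p = 0.02) and at 3 days (-0.90, limma adjusted p = 0.023). Sdhc was lost without 5-day replicate 2 (0.056), and Sdhd at 5 days without 5-day replicate 1 (0.083) or 2 (0.095) or monoculture replicate 2 (0.076) or 3 (0.056), and at 3 days without 3-day replicate 3 (0.1) or monoculture replicate 2 (0.087) or 3 (0.063). The 40 genes with names starting with Nduf, without Ndufa4, most of them for complex I, had 14 higher and 1 lower with a median of 0.43, close to the members' 14 and 1 of 41 with a median of 0.43.

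Of 12 regulators of mitochondrial biogenesis 1 passed, higher (8.33%, against 12.6% of all tested genes). Esrra, the gene of estrogen-related receptor alpha, which activates respiratory genes, had 194.1, 172.3 and 295.9 at 5 days, 181.0, 180.3 and 192.0 at 3 days and 117.6, 97.6 and 121.5 in monoculture. All co-culture libraries were above the monocultures, at 0.94 ± 0.21 at 5 days (SE, limma adjusted p = 0.0036) and 0.72 ± 0.21 at 3 days (limma adjusted p = 0.022), a 3-day call that was lost without 3-day replicate 2 (0.057) or 3 (0.056) or monoculture replicate 2 (0.09). Of 10 genes that maintain or express the mitochondrial genome 1 was called at 5 days (10.0%), Slirp, and 3 at 3 days (30.0%, against 10.6% of all tested genes), all higher: Slirp, Polg2 (1.53, limma adjusted p = 0.035) and Mtpap (0.75, limma adjusted p = 0.027). Polg2 and Mtpap were each lost without 4 of the 6 libraries compared, Polg2 without 3-day replicate 2 or 3 or monoculture replicate 1 or 2 (0.058 to 0.16) and Mtpap without 3-day replicate 2 or 3 or monoculture replicate 1 or 3 (0.055 to 0.1). Slirp, which stabilises mitochondrial mRNAs, had 177.9, 185.3 and 192.3 at 5 days, 132.8, 149.0 and 182.3 at 3 days and 75.5, 89.4 and 86.1 in monoculture, higher on both days without overlap (1.14 ± 0.18, limma adjusted p = 0.00028, and 0.87 ± 0.18, limma adjusted p = 0.0032). Of 6 genes of the cristae organising complex 2 passed, both higher (33.3%), Apool (1.32, limma adjusted p = 0.0073) and Chchd3 (0.62, limma adjusted p = 0.023, lost without 5-day replicate 2 at 0.098 or monoculture replicate 1 at 0.097). Of 5 ATP synthase assembly and regulation genes 1 was higher (20.0%), Tmem70 (0.74, limma adjusted p = 0.023, but 0.057 to 0.1 without 5-day replicate 2 or 3 or monoculture replicate 1 or 2), and the list's median was -0.32. The epithelial markers were higher in the same co-culture libraries, and their part in these calls was not tested.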

How the data were processed

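Per the submitters' processing notes, 3′ end mRNA reads were handled with bcl2fastq, STAR 2.4.2a and HTSeq on mm10; the annotation and strand setting are not given in the sources used here. The authors deposited normalised counts (a signal, with 1 scaling factor per library, given to 1 decimal). Whole reads were recovered from the deposited signal: 99.8% to 100% of a library's values were whole within 0.051. Columns were matched by name, except that of 5-day co-culture replicate 2, whose name lacks the carcinoma cells and which was placed because the other 8 matched all other samples. Between replicates of a group, read counts differed by more than sampling noise (chi-square per degree of freedom of 5.61 to 14.6).

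Differences were tested with limma 3.58.1 in R 4.3.3 (eBayes with trend) on log2(value + 1), 1 model over 9 libraries, with Benjamini-Hochberg adjustment over the 10639 genes that reached 5 or more in 3 or more libraries. Log2 fold changes are therefore too small for low genes. The scripts were tested on simulated data. Other settings tried were a pseudocount of 0.5 or 5, the unfiltered table, only genes averaging 20 or more, TMM, median-of-ratios and quantile scaling, a replicate block, only the compared groups, edgeR 4.0.16 and DESeq2 1.42.0 on recovered reads, and leaving out each library. Members and lists were chosen with earlier results of these data known. The text names, per complex, the 4 genes with the smallest adjusted p, those that fell against monoculture, isoform families, the gene with the largest p at 5 days, genes called at 5 against 3 days, and up to 2 genes of each other list; further genes were named after their values were seen. GENCODE M21 (mm10) gave positions for 41 of 41 members, Atp5sl under its current symbol Dmac2. The entry for Atp5o does not reach its RefSeq promoter. Shared 3′ windows are exact 50-base matches to transcripts of other genes.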

Additional observations from a re-analysis of the deposited data

Results flagged for a closer look

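In 4 genes the 5-day and 3-day co-cultures differed from each other in the limma test. Monocultures were sampled at 5 days only, so the length of co-culture and the days in culture cannot be told apart. Cox6a2, the muscle form of subunit 6a, was lower at 5 days than at 3 days by a log2 fold change of -1.69 (adjusted p = 0.015), with every 3-day library above every other. Atp5g1 of the c ring was higher at 5 days by 0.85 (adjusted p = 0.021), and its 3-day libraries were below both other groups. Of its 3′ windows 36.0% are shared with other annotated genes. Cox7a2 was higher by 0.83 (adjusted p = 0.019) and Uqcrfs1 by 0.73 (adjusted p = 0.027), and in both the 3-day libraries overlapped the monocultures. Each of the 4 calls was lost without 1 or more libraries, with limma adjusted p of 0.05 to 0.12, and no call was lost by more than 5 of 17 alternatives. No group had enough libraries to look for single libraries that stand apart.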

How the results depend on the processing

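Of the 21 calls of single members, 10 passed under every alternative tried, all at 5 days against monoculture: Cyc1, Uqcrfs1, Uqcr10, Cox5a, Cox6b1, Cox6b2, Cox6c, Cox7a2, Atp5k and Cox4i2 (Cox4i2 was not tested where a mean of at least 20 was asked). Over all alternatives these calls were kept 302 times and lost 53 times, and 0 changed sign, and in no setting did the median of all genes shift by more than 0.1. The members' median ran from 0.29 to 0.43 at 5 days, 0.04 to 0.18 at 3 days and 0.24 to 0.37 between the co-cultures. Limits are 3 libraries a group, low counts in 9 genes with a mean under 100, and shared 3′ ends; why a count moved was not tested.

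At 5 days the 14 genes higher became 11 to 15 over the other settings, with 15 for edgeR and DESeq2, and 9 to 13 when a library was left out, lowest without 5-day replicate 2. The 1 lower gene became 0 with a mean of at least 20, because Cox4i2 then left the test, and stayed at 1 when a library was left out. ATP synthase calls went from 5 to 3 under quantile normalization and to 1 to 3 without a library, complex III stayed at 3, and complex IV gave 6 to 8. All genes called ranged from 1935 to 2158 without a library.

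At 3 days the 1 gene higher became 2 with a pseudocount of 5, the replicate block or DESeq2 and 0 with no filter, TMM, median-of-ratios or quantile scaling, only the compared groups or edgeR, and 0 to 4 without a library. The 1 lower gene became 0 to 1 without a library. Complex III calls, 2, became 1 with no filter, TMM, median-of-ratios or quantile scaling, only the compared groups or edgeR, and 0 to 3 without a library. Complex IV calls, 0, became 1 with a pseudocount of 5, the block or DESeq2, and 0 to 2 without a library. ATP synthase stayed at 0. All genes called ranged from 1534 to 2115.

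Between the co-cultures the 3 genes higher became 5 with a mean of at least 20, 1 under quantile normalization, 6 with the replicate block and 7 with DESeq2, and 0 to 5 without a library; the 1 lower became 0 to 1. Complex III calls, 1, became 0 under quantile normalization, and 0 to 1 without a library. Complex IV calls, 2, became 1 under quantile normalization and 4 with the block or DESeq2, and 0 to 4. ATP synthase calls, 1, became 2 with a mean of at least 20 or the block and 3 with DESeq2, and 0 to 2. All genes called ranged from 323 to 693.

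The replicate numbers were not taken as pairs, because the labels do not say that a number marks a shared animal, batch or day. Over the 3 comparisons, correlations ran from -0.114 to 0.233 for same-numbered libraries and from -0.298 to 0.323 for the others. At 5 days against monoculture they were 0.041 to 0.233 for same-numbered libraries and -0.19 to 0.048 for the others. With 3 libraries a group these values cannot settle whether the numbers mark pairs. With the replicate block, 15 members were higher and 1 lower at 5 days, 2 and 1 at 3 days, and 6 and 1 between the co-cultures. Of the differences printed for members, the block put 4 past the threshold that missed it without the block: Cox7c at 5 days (0.038), Cox5a at 3 days (0.04), and Cox6b1 (0.044) and Atp5k (0.05 after rounding) between the co-cultures.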
